A study of Mus musculus with 32 samples.

Results

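The liver takes up organic anions, bile salts and drugs from portal blood through organic anion transporting polypeptides, encoded by Slco genes, and exports them through ATP-driven pumps, many of them encoded by Abcc and Abcg genes. In hepatocytes, Slco1a1, Slco1a4, Slco1b2 and Slco2b1 encode uptake carriers of the sinusoidal membrane, Abcc2 and Abcg2 encode pumps of the canalicular membrane that empty into bile, and Abcc3 encodes a sinusoidal pump that returns conjugates to blood. Slco2a1 encodes the prostaglandin transporter, and Abcc6 encodes a hepatic transporter whose loss causes ectopic calcification. These 9 genes, out of 20076 in the deposited table, were chosen by name as a transporter list anchored on Slco1a4, which had been seen to be lower in KO than in WT livers on the high-fat diet. The KO to WT contrast on the high-fat diet had thus been used to select them, and its values are given as a description without a test. All 9 genes passed the filter on low counts, which left 11566 genes for testing.

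Liver RNA came from 32 male C57BL/6J mice, either wild type (WT) or Acadm-knockout (KO), which lack the mitochondrial enzyme medium-chain acyl-CoA dehydrogenase (MCAD) in every cell. The deletion is carried in the germline and is not confined to liver. The mice had been kept for 6 weeks on a semisynthetic low-fat (LF) or high-fat (HF) diet and were then fed or fasted for 16 h, with 4 mice in each of the 8 groups, and their labelled ages ran from 7.5 to 16 without a unit. The libraries read only the 3′ ends of transcripts, so that values of different genes are not compared with each other here, and levels are given as CPM, a library's counts scaled to a common total after TMM normalisation.

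Total counts ran from 2031053 to 4292200 per library, and Acadm had 26 to 94 counts in the 16 KO livers against 566 to 2752 in the 16 WT livers. A pair of libraries stood apart and were left out of the main analysis, which used 30 mice. The library of KO HF fasted replicate 4 held 40111 CPM of 12 heart markers, at most 396 CPM in the 30 mice, and 843 CPM of hepatocyte markers, at least 39728 CPM in the 30 mice. In WT LF fed replicate 2, stellate cell markers came to 1729 CPM (highest of the 30 mice 763 CPM) and bile duct markers to 435 CPM (highest 96.9 CPM). All 9 hepatocyte markers found in the table had counts in every one of the 30 livers. Acinar pancreas genes reached 17745 CPM in WT HF fasted replicate 2 and 2676 CPM in KO HF fed replicate 1, and adrenal cortex genes reached 271 CPM and 115 CPM in KO LF fasted replicates 3 and 4, so that counts of calls are also given without these 4 mice, a choice made after the values had been seen. With both outlying libraries put back, the fasting calls of Slco1a4 described below were kept (mean log2 1.06, adjusted p = 0.00392, edgeR), while every other call on the 9 genes was lost (adjusted p of the mean effects 0.107 to 0.617). The libraries were run on sequencing lanes 7 and 8. Of the 30 mice, lane 7 held none of WT LF fed, and lane 8 held 1 mouse each of KO LF fasted (replicate 4), WT HF fed and KO HF fasted, so that fits within lane 8 that use these groups rest on arms of 1 mouse, which is assumed to vary like the other groups. In bulk RNA, fewer cells of a type and less RNA per cell cannot be told apart.

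Slco1b2, Slco1a4 and Slco1a1 lie in the same gene cluster on chromosome 6 (GRCm38), Slco1b2 on the plus strand at chr6:141629518-141686646, and Slco1a4 and Slco1a1 on the minus strand at chr6:141805440-141856199 and chr6:141907282-141946962. Abcc2 lies on the plus strand at chr19:43782192-43840740. The promoters of these 4 genes are shown because Slco1a4 and Slco1a1, which are neighbours, moved in opposite directions with fasting, because Slco1b2 in the same cluster moved with diet instead, and because Abcc2 alone of the 7 with a promoter in the table held an exact match to the core of the antioxidant response element. Each line gives the 250 bases before the RefSeq start (GRCm38.p6), 5′ to 3′ on the strand of the gene, at chr6:141856221-141856470 for Slco1a4, chr6:141946963-141947212 for Slco1a1, chr6:141629268-141629517 for Slco1b2 and chr19:43782058-43782307 for Abcc2, with motif matches in capitals.
Slco1a4: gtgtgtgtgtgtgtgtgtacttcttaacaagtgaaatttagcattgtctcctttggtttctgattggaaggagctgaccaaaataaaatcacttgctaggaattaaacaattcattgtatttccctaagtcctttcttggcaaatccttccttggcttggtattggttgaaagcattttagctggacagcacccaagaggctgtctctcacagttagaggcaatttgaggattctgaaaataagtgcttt
Slco1a1: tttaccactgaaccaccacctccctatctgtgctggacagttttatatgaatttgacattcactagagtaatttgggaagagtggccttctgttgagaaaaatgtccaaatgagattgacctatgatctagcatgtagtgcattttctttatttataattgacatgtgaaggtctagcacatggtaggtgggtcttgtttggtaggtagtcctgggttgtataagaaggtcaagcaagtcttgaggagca
Slco1b2: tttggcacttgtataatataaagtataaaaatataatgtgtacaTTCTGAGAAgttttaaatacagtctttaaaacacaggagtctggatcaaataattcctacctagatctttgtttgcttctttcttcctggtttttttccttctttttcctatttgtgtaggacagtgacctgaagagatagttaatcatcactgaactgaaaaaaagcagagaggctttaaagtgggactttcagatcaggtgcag
Abcc2: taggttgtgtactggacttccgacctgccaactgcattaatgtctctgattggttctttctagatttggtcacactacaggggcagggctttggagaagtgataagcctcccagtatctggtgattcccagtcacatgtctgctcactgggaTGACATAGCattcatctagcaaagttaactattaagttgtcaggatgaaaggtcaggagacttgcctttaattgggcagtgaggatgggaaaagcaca

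RefSeq promoters were found for 7 of the 9 genes, 11 promoters in all, and each was searched on both strands for 6 motifs. The antioxidant response element core TGACNNNGC, bound by NRF2, was found 98 to 90 bases before the RefSeq start of Abcc2, which places it inside the gene as annotated by GENCODE, and in 10.2% of 32851 promoters of the same length. TTCNNNGAA, the palindrome bound by STAT5, was found 206 to 198 bases before the start of Slco1b2 and in 1 of the 3 promoters of Slco2b1, against 7.02% of all promoters. None of the 11 held an exact direct repeat of the nuclear receptor half-site AGGTCA with a spacer of 1, 3 or 4 bases, or an exact match to the HNF1 motif, which were found in 0.0335%, 0.00609%, 0.0152% and 0.0609% of all promoters. The motifs did not overlap one another in the promoters shown. The windows of Slco1a4 and Slco1a1 held none of the 6. A match is a description of letters only, and the absence of one says nothing about binding of the factor.

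The remaining genes lie at chr7:99657804-99711340 (Slco2b1, minus strand), chr9:102988712-103096002 (Slco2a1, plus strand), chr11:94343295-94392997 (Abcc3, minus strand), chr7:45967555-46030302 (Abcc6, minus strand) and chr6:58584523-58695676 (Abcg2, plus strand). No 50-base stretch in the last 500 bases of the annotated transcripts of Slco1a1, Slco1a4, Slco1b2, Abcc2, Abcc3 or Abcc6 occurred in a transcript of another gene. For Slco2b1, Slco2a1 and Abcg2, 0.752%, 3.71% and 0.624% of such stretches did. These shares count stretches and not reads, so the share of reads affected is not known. Slco2b1 overlaps the genes Gm15635 and Gm34280 on the other strand, Slco2a1 overlaps Gm47468, Gm22595 and n-R5s89, and Abcc6 overlaps the pseudogene Gm45674. The strand setting of the counting is not given in the sources used here, so that reads of these 3 genes and their partners on the other strand may not be told apart.

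The first question was which transporters respond to fasting. Averaged over the 4 conditions of genotype and diet, fasting raised Slco1a4 and Abcc3 and lowered Slco1a1 and Slco2b1, 4 of the 9 genes, against 18.9% of the 11566 genes tested (9.77% higher, 9.14% lower). The mean log2 differences were 1.26 ± 0.19 SE for Slco1a4 (adjusted p = 1.35e-05) and -0.61 ± 0.10 for Slco1a1 (adjusted p = 1.96e-05, edgeR), and within lane 8 they were 1.08 and -0.61, with 3 of the 8 groups at 1 mouse. Without the 4 mice that carried pancreas or adrenal genes, 6 of the 9 were called, with Slco2a1 and Abcc6 added, against 17.9% of all genes in that fit. The median log2 difference over the 9 genes was -0.0091, beside -0.0022 over all genes tested.

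Slco1a4 encodes OATP1A4, a carrier of bile salts, steroid conjugates and cardiac glycosides. In WT livers on LF, its level was 15.9, 31.5 and 17.4 CPM in the 3 fed mice and 172, 108, 56.1 and 121 CPM in the 4 fasted mice. In KO livers on LF it was 23.1, 12.6, 26.1 and 22.8 CPM in the fed and 27.8, 117, 111 and 72.7 CPM in the fasted mice. Every fasted liver on LF lay above every fed liver of its genotype, although KO LF fasted replicate 1, at 27.8 CPM, lay just above the highest fed mouse. The fold change was 5.33 in WT (log2 2.42 ± 0.41 SE, adjusted p = 0.000280, edgeR) and 3.86 in KO (log2 1.95 ± 0.37, adjusted p = 0.000528). Within lane 8, the log2 value was 2.06 in WT and 1.57 in KO, where a single fasted mouse stood against 2 fed mice and the value did not pass (adjusted p = 0.112), and within lane 7 the KO value was 2.24.

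On HF, the levels of Slco1a4 were 53.3, 65.9, 37.5 and 36.6 CPM in WT fed, 62.8, 78.6, 62.1 and 59.7 CPM in WT fasted, 22.4, 25.6, 40.2 and 18.9 CPM in KO fed and 28.7, 37.1 and 28.7 CPM in KO fasted mice. Fed and fasted mice overlapped in both genotypes, with log2 differences of 0.45 in WT and 0.23 in KO, which are given without a test because these groups had been used to choose the gene. The contrast between diets includes these HF mice too, but averages KO and WT rather than comparing them. Averaged over genotypes, the fasting effect was smaller on HF than on LF by 1.85 on the log2 scale (± 0.38 SE, adjusted p = 0.00759, edgeR). Within lane 8, where 3 of the 8 groups held 1 mouse, that difference was -1.47, with an adjusted p of 0.265. In the 30 mice it remained past the threshold after any 1 of the 30 mice was left out (range -2.03 to -1.71).

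**Figure D1:**
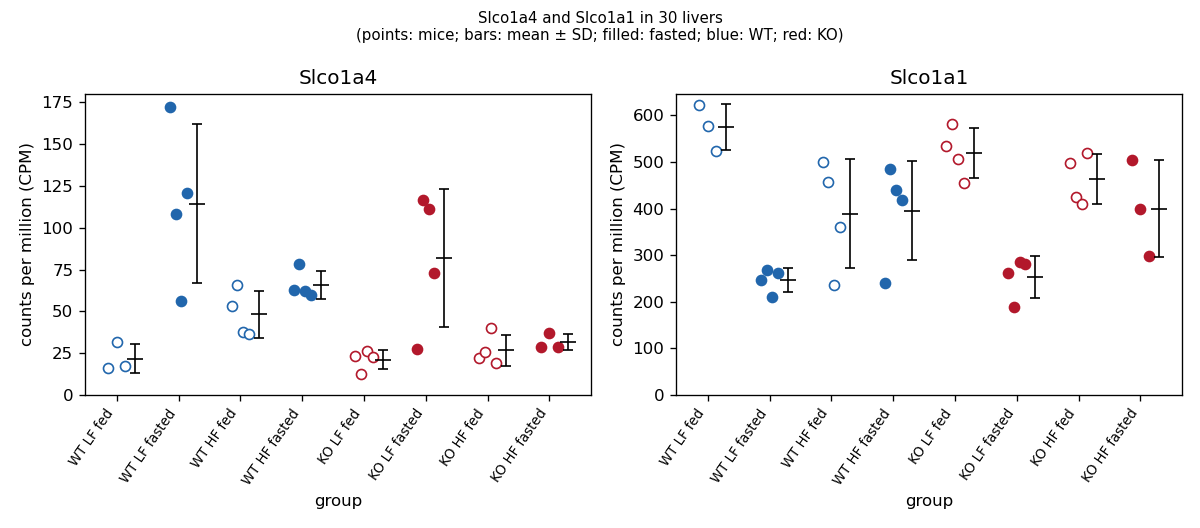
Levels of Slco1a4 (left) and Slco1a1 (right) in CPM, with 1 point for each of 30 livers in 8 groups, fed mice as open and fasted mice as filled points, and bars giving the mean ± SD of each group. On LF, fasted mice lie above fed mice for Slco1a4 (means 114 against 21.6 CPM in WT) and below them for Slco1a1 (means 247 against 575 CPM in WT), and on HF fed and fasted mice overlap for both genes.

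In the HF groups from which the gene was chosen, the mean level of Slco1a4 was 48.3 ± 14.0 CPM in WT and 26.8 ± 9.39 CPM in KO fed mice (SD, n = 4 each), a log2 difference of -0.84. In fasted mice the means were 65.8 ± 8.64 CPM (n = 4) and 31.5 ± 4.87 CPM (n = 3), a log2 difference of -1.06, and no KO mouse reached the lowest WT mouse (37.1 against 59.7 CPM). In fed mice the genotypes overlapped, since KO replicate 3 had 40.2 CPM and WT replicates 3 and 4 had 37.5 and 36.6 CPM. The log2 differences of the other 8 genes on HF lay between -0.28 (Abcc6) and 0.25 (Slco1a1) in fed mice and between -0.24 (Abcc3) and 0.16 (Abcg2) in fasted mice. For Slco2b1 the genotypes did not overlap in fasted mice, at 209 to 246 CPM in WT and 199 to 203 CPM in KO. Its log2 difference was only -0.19 ± 0.17 SE, and the share of all genes without overlap is not given here. Including both outlying libraries, among them the one with heart markers, moved the fasted value of Slco1a4 to -1.45. The fasted values of the other 8 genes fell as well, such as Abcc3 from -0.24 to -0.65 and Abcc2 from -0.08 to -0.48.

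On LF, where the genotype comparison had not chosen the genes, KO and WT differed in none of the 9 by edgeR, in fed or in fasted mice, and in none at an unadjusted p under 0.05 or by DESeq2. Over all genes, 0.00865% were called in LF fed and 0.00865% in LF fasted mice, 1 gene in each. The log2 difference of Slco1a4 was -0.0096 ± 0.41 SE in fed and -0.48 ± 0.34 SE in fasted mice. Those of the other 8 lay between -0.28 (Abcc3, fasted) and 0.38 (Abcg2, fasted). For Slco1b2 the genotypes did not overlap in LF fed mice, at 2799 to 3416 CPM in WT and 2315 to 2775 CPM in KO. Its log2 difference there, -0.27 ± 0.17 SE, did not pass, and the share of all genes without overlap is not given here. The fasting effect on LF did not differ between KO and WT for any of the 9 by edgeR or DESeq2, with 1 of them, Abcg2, at an unadjusted p under 0.05, and 0% of all genes called by edgeR and 0 genes by DESeq2.

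Ordered by mean level, Slco1a4 ran from WT LF fasted and KO LF fasted through WT HF fasted, WT HF fed, KO HF fasted, KO HF fed and WT LF fed to KO LF fed, and each of the 7 neighbouring pairs had overlapping intervals of mean ± SD. The highest and the lowest mean differed 5.40-fold, and single mice ran from 12.6 to 172 CPM.

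Slco1a1 encodes OATP1A1, a carrier of sulfated steroids and bile salts whose expression in mouse liver is male-biased. Its level on LF was 623, 577 and 524 CPM in WT fed and 247, 268, 210.0 and 262 CPM in WT fasted mice. In KO mice on LF it was 535, 582, 506 and 455 CPM when fed and 261, 189, 286 and 280.4 CPM when fasted. The fed and the fasted mice did not overlap in either genotype. Slco1a1 was 2.33-fold lower after fasting in WT (log2 -1.22 ± 0.21 SE, adjusted p = 0.000135) and 2.05-fold lower in KO (log2 -1.03 ± 0.20, adjusted p = 0.000299, both edgeR). Within lane 8 the log2 value was -1.28 in WT (adjusted p = 1.19e-05) and -0.78 in KO, the latter from a single fasted mouse, and within lane 7 the KO value was -1.19 (adjusted p = 0.0297).

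On HF, Slco1a1 was at 500.4, 457, 236 and 361 CPM in WT fed and 241, 485, 439.7 and 418 CPM in WT fasted mice, and at 498, 424, 411 and 520.3 CPM in KO fed and 505, 398 and 298 CPM in KO fasted mice. Fed and fasted mice overlapped, and the log2 differences of 0.027 in WT and -0.21 in KO did not pass the test. The fasting effect differed between diets by 1.03 ± 0.20 SE (adjusted p = 0.00313, edgeR) and by 0.84 within lane 8, where 3 groups held 1 mouse (adjusted p = 0.0486). In the fasted state, Slco1a1 was higher on HF than on LF by 0.68 in WT (adjusted p = 0.0797) and 0.66 in KO (adjusted p = 0.109), neither past the threshold, although DESeq2 called the WT value (adjusted p = 0.0433), as did edgeR without WT HF fasted replicate 1 (log2 0.86, adjusted p = 0.0187). In WT LF fed replicate 2, which was left out, Slco1a1 had 8 counts (2.52 CPM) and Slco1a4 was at 50.8 CPM, above the 3 other mice of that group.

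Slco1a4 and Slco1a1 were the 2 genes of the 9 whose fasting effect differed between diets, against 2.46% of all genes tested (1.26% with a more positive and 1.2% with a more negative effect on HF), and 2 of 9 against 2.05% passed without the 4 mice with pancreas or adrenal genes. On HF, 0 of the 8 genes tested passed in WT and 0 of 8 in KO by edgeR, against 0.424% and 0.527% of all genes, and 0 of 8 passed in each by DESeq2. In each genotype 1 gene had an unadjusted p under 0.05 in edgeR (Abcc3 in WT, Slco2b1 in KO). On LF, 3 of 9 passed in WT and 4 of 9 in KO, against 7.54% and 13.8%, and without the 4 mice with pancreas or adrenal genes 3 of 9 passed in each genotype, against 7.68% in WT and 12% in KO. Averaged over conditions, 2 of 8 stellate cell markers were lower with fasting (Col3a1 by 1.44 and Lrat by 0.72 on the log2 scale). So were 1 of 8 macrophage markers (Adgre1 by 0.60) and 1 of 4 bile duct markers tested (Spp1 by 0.51), beside 9.14% of all genes. Of 6 adrenal cortex genes, 0 were called averaged over conditions. In KO on LF alone 2 of these 6 were higher with fasting, beside 840 of 11566 genes. That fasted group holds replicates 3 and 4, with 271 and 115 CPM of adrenal genes. Summed bile duct markers were lower in fasted mice on LF, with no overlap between fed and fasted mice in either genotype. The fed and fasted means were 89.5 ± 7.27 and 55.2 ± 4.94 CPM in WT (SD, n = 3 and 4) and 75.5 ± 13.2 and 49.0 ± 3.49 CPM in KO (n = 4 each). On HF, fed and fasted mice overlapped and the fasted means were the higher ones. They were 65.8 ± 2.59 fed and 75.0 ± 15.3 CPM fasted in WT, and 64.2 ± 6.69 fed and 71.0 ± 12.7 CPM fasted in KO. Of these markers, Krt7, Krt19, Epcam and Cftr had at most 9, 18, 17 and 5 counts. Sox9 and Spp1 averaged 41.7 and 21.0 CPM, and Sox9 did not pass for mean fasting (log2 0.031). The sum of other Slco and Abc efflux transporters was also lower in fasted mice on LF without overlap. It ran from 817 to 897 fed and 565 to 775 CPM fasted in WT, and 862 to 1057 fed and 627 to 705 CPM fasted in KO. Of the 9 hepatocyte markers, 3 were higher with fasting (Apoa1 by 0.54, Pck1 by 1.56 and Apob by 0.36) and 1 was lower (Ttr, by 0.30), and they summed to between 39728 and 75015 CPM over all 30 mice. Their part in the results was not tested.

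**Figure D2:**
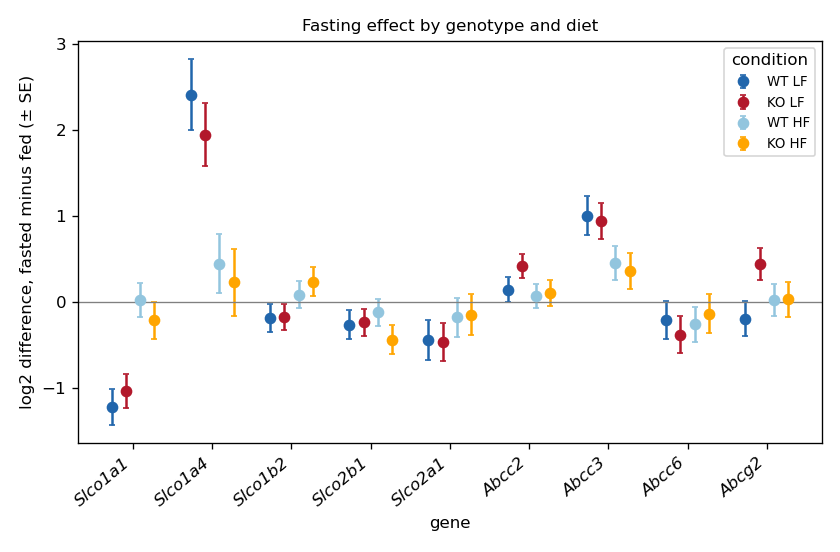
Log2 difference between fasted and fed mice (vertical axis, ± SE from edgeR) for each of the 9 genes, with 1 point for each genotype and diet. The LF points of Slco1a4 (2.42 and 1.95) and Slco1a1 (-1.22 and -1.03) lie apart from the HF points (0.45 and 0.23, and 0.027 and -0.21), and the LF points of Abcc3 lie at 1.01 and 0.94.

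The genes most like Slco1a4 over the 30 mice, by Pearson's r of log2 CPM among 7396 genes with a mean of at least 10 CPM, were Tdo2 (r = 0.87), Sec23a (0.81), Cyp3a25 (0.80), Serinc3 (0.80) and Rbp4 (0.80). Tdo2 encodes tryptophan 2,3-dioxygenase and Cyp3a25 a cytochrome P450 of the Cyp3a family. Within groups, after the group means had been taken out, r was 0.75 for Tdo2 and 0.68 for Cyp3a25. Those most like Slco1a1 were Hsd3b5 (r = 0.89), Cyp2c70 (0.88), Slc22a28 (0.86), Selenbp2 (0.85) and Abca8a (0.85), of which Hsd3b5 and Selenbp2 are male-biased liver genes, and r within groups was 0.77 for Hsd3b5. These are descriptions over mice that share groups, lanes and scaling. Among the 9 genes, the lowest r was that of Slco1a4 with Slco1a1 (-0.67), and the highest was that of Slco1b2 with Abcc3 (0.54).

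Abcc3 encodes MRP3, the sinusoidal pump for glucuronides and bile salts. It was the gene of the 9 that passed the test for both fasting and diet. On LF its level was 34.1, 19.4 and 26.4 CPM in WT fed, 52.2, 55.8, 60.8 and 47.3 CPM in WT fasted, 23.7, 26.1, 20.3 and 22.5 CPM in KO fed and 54.3, 48.2, 44.8 and 30.5 CPM in KO fasted mice, so that no fed mouse reached a fasted mouse of its genotype. On HF it was 56.0, 68.8, 57.8 and 59.7 CPM in WT fed, 96.1, 58.7, 83.3 and 93.2 CPM in WT fasted, 66.0, 51.9, 64.9 and 34.6 CPM in KO fed and 61.5, 85.8 and 62.8 CPM in KO fasted mice. The HF mice lay above the LF mice of the same genotype and feeding state, apart from WT fasted mice, where replicate 2 on HF (58.7 CPM) fell inside the LF range.

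Averaged over the other factors, Abcc3 rose 1.61-fold with fasting (log2 0.69 ± 0.11 SE, adjusted p = 3.7e-06, edgeR) and 1.89-fold with HF (log2 0.92 ± 0.11, adjusted p = 6.05e-07). Within lane 8 these log2 values were 0.60 and 1.03, with 3 groups at 1 mouse. Fasting on LF gave log2 1.01 in WT and 0.94 in KO (adjusted p = 0.00234 and 0.00150), the latter at 0.97 within lane 7 and at 0.51 within lane 8 (adjusted p = 0.474), where the only fasted mouse was replicate 4, the lowest of its group at 30.5 CPM. HF in fed mice gave log2 1.17 in WT and 1.23 in KO (adjusted p = 0.0303 and 0.00862), and in KO fed mice Abcc3 was the only gene called of all 11566. The WT call was lost without any 1 of WT HF fed replicates 2, 3 and 4 or WT LF fed replicates 3 and 4 (adjusted p 0.0567 to 0.404), and with lane as a term (adjusted p = 0.0917). The KO call was lost without KO HF fed replicates 1 or 3 or KO LF fed replicates 1 or 3 (adjusted p 0.0592 to 0.125). The fasting effect was smaller on HF by 0.57 on the log2 scale, which did not pass (adjusted p = 0.173).

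Slco1b2 encodes OATP1B2, the mouse carrier closest to human OATP1B1 and OATP1B3. Its mean fasting difference did not pass the test, at log2 -0.0091 ± 0.08 SE, while HF raised it 1.34-fold on average (log2 0.42 ± 0.08, adjusted p = 0.00144, edgeR). In fasted mice the diets did not overlap. WT fasted livers held 2929, 2258, 2935 and 2828 CPM on LF and 3381, 4088, 3659 and 3454 CPM on HF. KO fasted livers held 2179, 2311, 2658 and 2029 CPM on LF and 4232, 4138 and 3315 CPM on HF, a log2 difference of 0.76 (adjusted p = 0.00864), which was lost without KO HF fasted replicate 1 (adjusted p = 0.0667), within lane 7 (0.162) and lane 8 (0.214, with 1 mouse in each fasted group), and with only these 2 groups in the fit (0.332). In fed mice the diets overlapped, at 2799 to 3416 CPM on LF and 2944 to 3916 CPM on HF in WT and at 2315 to 2775 and 2307 to 3773 CPM in KO. Within lane 8, with 3 groups at 1 mouse, the mean diet effect was 0.26 on the log2 scale and did not pass (adjusted p = 0.215).

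**Figure D3:**
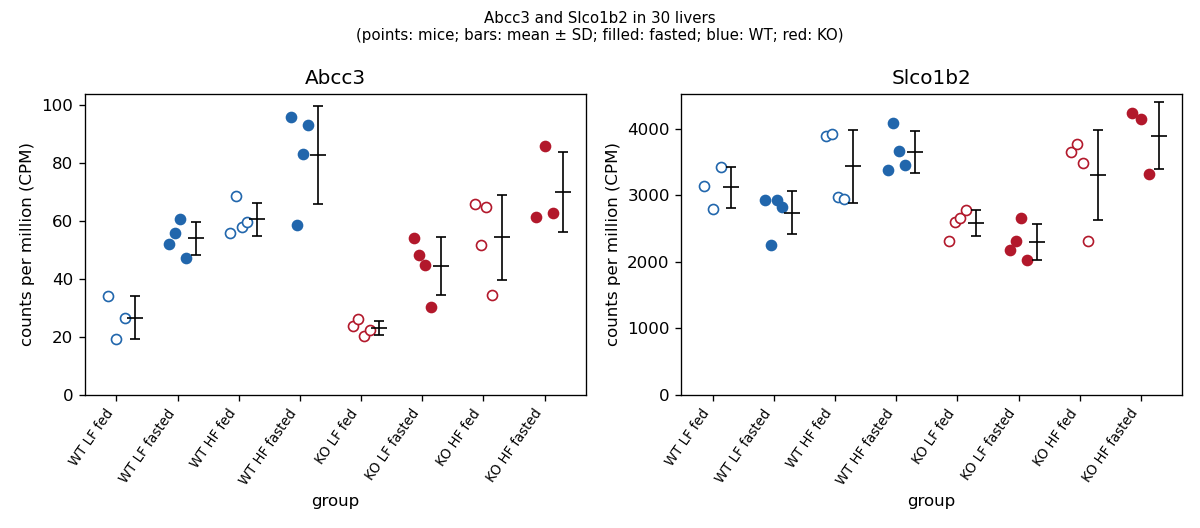
Levels of Abcc3 (left) and Slco1b2 (right) in CPM, with 1 point for each of 30 livers in 8 groups, fed mice as open and fasted mice as filled points, and bars giving the mean ± SD of each group. Abcc3 is lowest in the fed LF groups (means 26.7 CPM in WT and 23.2 CPM in KO) and highest in WT HF fasted mice (82.8 CPM), and Slco1b2 is higher in the fasted HF groups (3645 and 3895 CPM) than in the fasted LF groups (2737 and 2294 CPM).

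Abcc3 and Slco1b2 were the 2 genes of the 9 called for the mean diet effect, both higher on HF, against 3.49% of all genes (2.26% higher, 1.24% lower). The median log2 difference over the 9 was 0.13, beside 0.0068 over all genes. For single conditions, 1 of the 8 genes tested passed in WT fed mice (0.0778% of all genes), 1 of 8 in KO fed mice (0.00865%) and 1 of 8 in KO fasted mice (1.68%). In WT fasted mice 0 of 8 passed by edgeR, against 1.12% of all genes. Of these 8 genes, 3 had an unadjusted p under 0.05 and 1 passed by DESeq2, for which the shares of all genes are not given here. Without the 4 mice with pancreas or adrenal genes, 2 of 9 passed for mean diet (2.14% of all genes), 1 of 8 in WT fed (0.0846%), KO fed (0.00846%) and KO fasted mice (1.68%), and 0 of 8 in WT fasted mice (0.727%). For Slco1a4 the mean diet effect was -0.17 ± 0.19 SE (adjusted p = 0.747), which averages values of opposite sign, 1.17 in WT fed and 0.33 in KO fed against -0.80 in WT fasted and -1.39 in KO fasted mice.

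**Figure D4:**
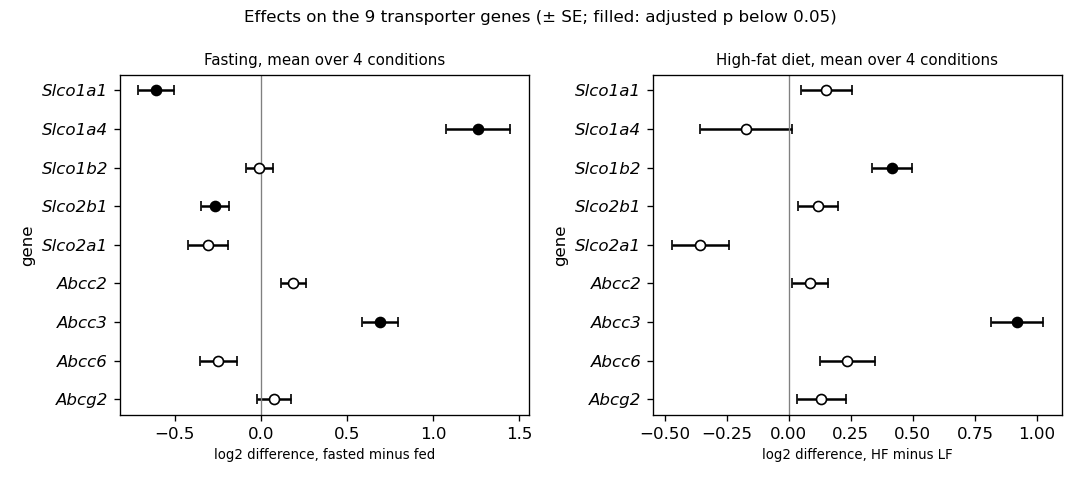
Log2 differences (horizontal axis, ± SE from edgeR) of the 9 genes between fasted and fed mice (left) and between HF and LF mice (right), each averaged over the 4 conditions of the other factors, with filled points where the adjusted p was below 0.05. With fasting, Slco1a4 (1.26) and Abcc3 (0.69) lie to the right and Slco1a1 (-0.61) and Slco2b1 (-0.26) to the left, and with HF the filled points are Abcc3 (0.92) and Slco1b2 (0.42).

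Slco2b1 encodes OATP2B1, a carrier of steroid sulfates and statins. It fell with fasting by 0.26 on the log2 scale on average (± 0.082 SE, adjusted p = 0.0174, edgeR), and by 0.33 within lane 8, with 3 groups at 1 mouse. Its fed and fasted means were 248 ± 38.0 and 206 ± 33.5 CPM in WT on LF, 227 ± 18.3 and 193 ± 39.7 CPM in KO on LF, 248 ± 45.6 and 228 ± 15.2 CPM in WT on HF, and 272 ± 26.1 and 201 ± 1.86 CPM in KO on HF (SD, n = 3 or 4). The fasted mean was lower in each of the 4 conditions, none of which passed on its own. The mice overlapped between fed and fasted in all but KO HF, where fed mice had 234, 281, 291 and 284 CPM and fasted mice 203, 201 and 199 CPM.

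Slco2a1 imports prostaglandins and is known from endothelium as well as hepatocytes. Its mean fasting difference of -0.31 (± 0.12 SE, adjusted p = 0.0549) and its mean diet difference of -0.36 (± 0.12, adjusted p = 0.0772) missed the threshold. On LF it was at 57.4, 57.0 and 49.3 CPM in WT fed and 35.0, 46.9, 38.8 and 40.2 CPM in WT fasted mice, without overlap, and at 79.1, 60.7, 47.7 and 34.1 CPM in KO fed and 38.4, 30.4, 59.6 and 33.2 CPM in KO fasted mice, with overlap. On HF it ran from 26.8 to 49.0 CPM. Both differences passed with lane as a term (adjusted p = 0.0276 and 0.0475), the fasting difference passed among genes with at least 10 counts in every mouse (0.0367), and the diet difference passed with labelled age as a term (0.0313). Without the 4 mice with pancreas or adrenal genes the fasting difference was -0.43 (adjusted p = 0.00755) and the diet difference did not pass (adjusted p = 0.1395). Leaving out 1 mouse made the fasting difference pass in 6 of 30 refits (KO HF fasted replicate 1, WT HF fed replicate 3, WT LF fasted replicate 2, KO LF fasted replicate 3, WT HF fasted replicate 2 and KO LF fed replicate 4) and the diet difference in 3 (KO LF fasted replicate 2, WT HF fasted replicate 2 and KO LF fed replicate 4). The 10 sinusoidal endothelial markers summed to between 354 and 543 CPM in the 30 mice, with 1 of the 10 called for fasting by edgeR (Lyve1, higher by 0.54). Their part in the values of Slco2a1 was not tested.

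Abcc2 encodes MRP2, the canalicular pump for bilirubin glucuronides and glutathione conjugates. It rose with fasting in KO mice on LF, from 352, 349, 406 and 434 CPM to 494, 495, 549.6 and 527 CPM, 1.34-fold and without overlap (log2 0.42 ± 0.14 SE, adjusted p = 0.0351, edgeR). The call was lost without KO LF fed replicates 1 or 2 or KO LF fasted replicates 3 or 4 (adjusted p 0.0689 to 0.108), without the 4 mice with pancreas or adrenal genes (0.197) and within lane 7 (0.156) or lane 8 (0.401), where 1 fasted mouse stood against 2 fed mice. WT mice on LF had 382, 379 and 428 CPM fed and 425, 361, 442 and 524 CPM fasted, with overlap and a log2 difference of 0.14. The difference between the genotypes, 0.28 ± 0.20 SE, did not pass (adjusted p = 0.944). Its mean fasting difference over the 4 conditions was 0.19 (adjusted p = 0.0657), which passed with DESeq2 (adjusted p = 0.0287) and by edgeR without KO LF fasted replicate 1 or WT LF fasted replicate 2 (adjusted p = 0.0414 and 0.0388).

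Abcg2, the breast cancer resistance protein that exports urate and sulfate conjugates, and Abcc6 passed no test in the main analysis. Abcg2 ran from 66.7 to 143 CPM, with group means from 83.5 ± 10.4 CPM in KO LF fed to 113 ± 20.7 CPM in KO LF fasted mice. Its fasting difference on LF was 0.44 in KO (adjusted p = 0.123) and -0.19 in WT (adjusted p = 0.681). Abcc6 ran from 16.8 to 42.0 CPM, with a fasting difference of -0.25 (adjusted p = 0.120) and a diet difference of 0.24 (adjusted p = 0.278). Leaving out KO LF fasted replicate 3, the mouse with 271 CPM of adrenal genes, moved its fasting difference to -0.31 and past the threshold (adjusted p = 0.0251), and leaving out all 4 such mice moved it to -0.33 (adjusted p = 0.0350).

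**Figure D5:**
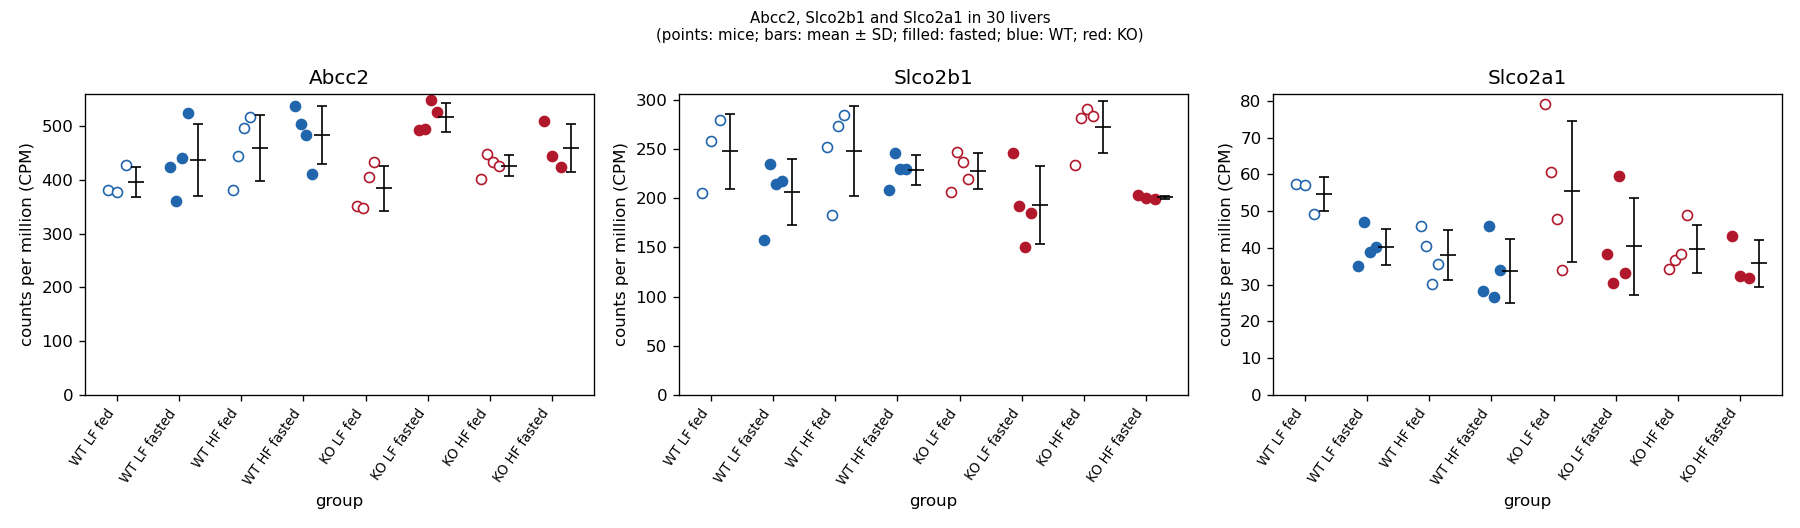
Levels of Abcc2 (left), Slco2b1 (middle) and Slco2a1 (right) in CPM, with 1 point for each of 30 livers in 8 groups, fed mice as open and fasted mice as filled points, and bars giving the mean ± SD of each group. Abcc2 separates fed from fasted mice in KO LF (means 385 and 516 CPM), Slco2b1 in KO HF (272 and 201 CPM) and Slco2a1 in WT LF (54.6 and 40.3 CPM). In the other conditions of each gene, fed and fasted mice overlap. The differences of Slco2b1 in KO HF and Slco2a1 in WT LF did not pass the test (adjusted p = 0.419 and 0.306, edgeR).

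Other Slco and Abc efflux transporters were examined for comparison. Of 24 in the table, 15 passed the filter, and with fasting 1 rose and 2 fell, a share near the 18.9% of all genes. The lipid pump Abcb4, which moves phospholipid into bile, rose by 1.04 ± 0.096 SE on the log2 scale, while Abcb11, the bile salt export pump, fell by 1.005 ± 0.079 and Abcb10, a mitochondrial transporter, fell by 0.95 ± 0.11 (adjusted p at most 6.59e-09 in edgeR). For the difference between diets, Abcb4 had a smaller fasting effect on HF (-0.81, adjusted p = 0.0148) and Abcb11 a less negative one (0.74, adjusted p = 0.00602). Slco1a6 and Slco1c1, which flank the cluster of Slco1b2, Slco1a4 and Slco1a1, had at most 2 and 4 counts in any of the 30 mice and are named for their place, not by their values. The median log2 fasting difference over the 15 was -0.011.

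Of 15 other hepatic carriers of organic ions and bile acids, 12 were tested, and 2 rose and 5 fell with fasting, beside 9.77% and 9.14% of all genes. Slc22a5, the carnitine carrier OCTN2, rose by 2.13 ± 0.16 SE, whereas Slc22a28 fell by 2.34 ± 0.24 and Slc22a30 fell by 1.03 ± 0.16, both members of the organic anion transporter family (adjusted p at most 3.29e-05). Slc47a1, the canalicular exporter MATE1, was higher on HF by 0.36 (adjusted p = 0.0238). The median log2 fasting difference over the 12 was -0.12. For the difference of the fasting effect between diets, 3 of the 12 were called, beside 2.46% of all genes. Slc22a5 had a more negative effect on HF (-1.67), and Slc22a28 and Slc22a30 had more positive ones (1.96 and 1.33).

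Of 14 nuclear receptors and other factors known to control transporter genes, 6 rose and 2 fell with fasting, beside the same shares of all genes. Nr1i3, which encodes CAR, rose by 1.52 ± 0.096 SE, Ppara rose by 0.63 ± 0.13, and Stat5b, the mediator of growth hormone signals, fell by 0.42 ± 0.089 (adjusted p at most 0.000726, edgeR). Nr1i3 was also higher on HF by 0.35 (adjusted p = 0.0284), the only one of the 14 called for diet. Its fasting effect was smaller on HF than on LF by 0.96 on the log2 scale (adjusted p = 0.00309).

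Lists of known target genes were counted in the same way, to be read beside 9.77% of all genes higher and 9.14% lower with fasting and 2.26% higher and 1.24% lower on HF. Of 13 PPAR alpha targets 12 rose with fasting, among them Cpt1a of fatty acid import into mitochondria by 1.40 ± 0.12 and Acot1 by 3.66 ± 0.26. The fasting effect of 6 of the 13 was called more negative on HF than on LF, beside 1.2% of all genes. The median of that difference over the 13 was -1.34. More negative effects were also called for 1 of 10 CAR and PXR, 2 of 10 NRF2 and 0 of 2 AhR targets tested. Of 10 CAR and PXR targets tested, 3 rose and 1 fell with fasting, with P450 reductase (Por) higher by 2.36 ± 0.14 and Alas1 of haem synthesis by 1.75 ± 0.41, and 3 were higher on HF, among them Aldh1a1 (0.70 ± 0.099) and Cyp2c37 (0.60 ± 0.14). Of 10 NRF2 targets, 2 rose and 2 fell with fasting, where Ephx1 was higher by 0.64 ± 0.11 while Gclc fell by 0.68 ± 0.11 and Gstm1 fell by 0.52 ± 0.10, and Gclc was higher on HF by 0.42. Both AhR targets tested fell with fasting, Cyp1a2 by 0.63 and Tiparp by 0.62, and Cyp1a2 was higher on HF by 0.49. Apart from the median, these are log2 differences ± SE from edgeR, each past an adjusted p of 0.05.

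Of 12 male-biased liver genes, 4 fell and 2 rose with fasting, and 2 were higher and 1 lower on HF. Hsd3b5, a 3-beta-hydroxysteroid dehydrogenase, fell by 2.94 ± 0.22 on the log2 scale, Cish fell by 1.89 ± 0.40, and Cyp2d9 rose by 0.45 ± 0.084 (adjusted p at most 0.00116, edgeR). Hsd3b5 was higher on HF by 1.70 ± 0.22, while Cyp4a12b was lower on HF by 0.68 ± 0.18 (adjusted p = 0.0293). The fasting effect of Hsd3b5 differed between diets by 4.74 ± 0.43 (adjusted p = 4.27e-07, edgeR), the same sign as Slco1a1. Hsd3b5 was the only 1 of the 12 called for this difference, beside 2.46% of all genes. The median of this difference over the 12 was 0.16 on the log2 scale. Of the 4 female-biased genes tested, Cyp17a1 and Fmo2 rose with fasting, by 1.92 and 0.81, and Cyp2b9 was higher on HF by 5.89 ± 1.37 (adjusted p = 0.0293, edgeR). The mean level of Cyp2b9 over the 30 mice was only 2.80 CPM, and its mean fasting difference had an SE of 4339. The size of its diet difference is therefore uncertain.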

How the data were processed

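Liver RNA of 32 mice was analysed. Per the labels and the study's methods, the authors prepared QuantSeq 3′ libraries, sequenced single reads, aligned them to GRCm38 with HISAT (0.1.5) and SAMtools (1.2) and counted them per gene with HTSeq (0.6.1p1). The deposited table holds raw counts for 20076 genes, and no normalized value was used. The 9 genes and all lists were chosen with earlier results of these data known. Groups came from the labels.

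Counts of 30 mice were filtered with filterByExpr, scaled by TMM and fitted with a robust quasi-likelihood model of the 8 groups in edgeR (4.0.16, R 4.3.3), with Benjamini-Hochberg adjustment over 11566 genes and an adjusted p of 0.05 as threshold. Tests were two-sided, each library was 1 mouse, and p-values set differences of group means against the spread between mice. That spread was estimated jointly over the 8 groups. The code was tested on simulated data. KO was not tested against WT on HF, nor Slco1a4 in single-genotype contrasts with HF mice. Contrasts averaged over genotypes were tested for Slco1a4, although they include the HF mice used to choose it. Members were always named. From other lists, up to 3 genes were named for fasting and up to 2 for diet, those with the smallest p among those past the threshold. Some genes that this rule names are not reported here. Alternatives were all 32 mice, DESeq2 (1.42.0), RLE scaling, other filters, lane, labelled age or replicate number as a term, single lanes, only the groups compared and each mouse left out. Total counts of 2031053 to 4292200 per library set the precision, and Slco1a4 had 30 to 478 counts in the 30 mice, Abcc6 39 to 141. Libraries of a group differed by more than sampling noise (chi-square per gene 4.17 to 55.6 over pairs), so that none was counted as a duplicate. Same-numbered mice of different groups did not deviate together (correlation of residuals -0.20 to 0.17, median 0.0060, over 98 pairs), and the numbers were not taken as pairs. Gene positions are from GENCODE on GRCm38.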

Additional observations from a re-analysis of the deposited data

Results flagged for a closer look

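In 72 sets of 4 mice (9 genes in 8 groups), the highest or lowest mouse was checked for a gap to the next mouse that exceeded Dixon's 95% limit, which chance exceeds in about 1 of 20 sets, and 5 exceeded it. Of these, 3 came from the 2 libraries left out. Slco1a1 was at 2.52 CPM in WT LF fed replicate 2, and in KO HF fasted replicate 4, the library with heart markers, Slco2b1 was at 42.2 CPM (next 201 CPM) and Abcc2 at 7.04 CPM (next 428 CPM). The others were Slco1a4 at 78.6 CPM in WT HF fasted replicate 2, the mouse with 17745 CPM of pancreas genes (next 62.8 CPM), and Slco1b2 at 2258 CPM in WT LF fasted replicate 2 (next 2828 CPM).

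The fasting effect differed between HF and LF by a test of the difference itself for 2 of the 9 genes. The differences were 1.03 for Slco1a1 and -1.85 for Slco1a4 on the log2 scale (edgeR). The test of Slco1a4 includes the HF mice used to choose the gene.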

How the results depend on the processing

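With both outlying libraries included (all 32 mice), the number of the 9 genes called went from 4 to 1 for mean fasting. It went from 3 to 1 and from 4 to 1 for fasting in WT and KO on LF. For mean diet and for the difference of the fasting effect between diets it went from 2 to 0. For diet in WT fed, KO fed and KO fasted mice it went from 1 to 0. The KO to WT value of Slco1a4 in HF fasted mice moved from -1.06 to -1.45, and those of the other 8 genes fell too. Over all genes the counts went from 2187 to 1553, 872 to 414, 1595 to 735, 404 to 81 and 285 to 22 for mean fasting, fasting in WT LF and KO LF, mean diet and the difference between diets. Within lane 8, where KO LF fasted, WT HF fed and KO HF fasted held 1 mouse each, the member counts were 1 for fasting in KO LF (6.77% of all genes), 1 for mean diet (2.33%), 1 for the difference between diets (0.987%) and 0 for diet in WT fed, KO fed and KO fasted mice, and within lane 7 they were 0 for diet in KO fed and KO fasted mice. With lane as a term diet in WT fed mice gave 0, with only the groups compared diet in KO fasted mice gave 0, and DESeq2 gave 1 for diet in WT fasted mice. Single lanes and pairs of groups hold fewer mice. For the other losses the cause was not tested. DESeq2 size factors moved the level of Slco2b1 in KO HF fasted mice from 201 to 192 CPM. DESeq2 called 588 genes for mean diet and 430 for the difference between diets.

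Leaving out 1 mouse gave 4 to 6 genes for mean fasting, 3 for fasting in WT LF, 3 to 5 in KO LF, 2 to 3 for mean diet, 2 for the difference between diets, and 0 to 1 for diet in WT fed, WT fasted, KO fed and KO fasted mice. Fasting on HF, genotype on LF and the difference between genotypes stayed at 0 in these refits by edgeR. With the replicate block, the replicate number as a term, counts were 4, 3, 4, 2 and 2 for mean fasting, fasting in WT LF and KO LF, mean diet and the difference between diets, and no count changed. In the main fit, the shares of all genes called for these were 18.9%, 7.54%, 13.8%, 3.49% and 2.46%, in the same order. For diet in single conditions they ran from 0.00865% to 1.68%. The shares of all genes in the refits of this paragraph are not given here. Of the 95 values that passed in neither the main fit nor any refit, 45 changed sign in at least 1 refit. Counts of 30 to 478 for Slco1a4 limit single-mouse precision.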
